A study of Mus musculus with 20 samples.

Results

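The genes of the cytosolic ribosomal proteins were examined in granulosa cells (GCs) of the high-fertility mouse line FL1 and of an unselected control line (ctrl). The members are the protein-coding genes of the GENCODE M21 annotation whose symbol has the form Rpl, Rps or Rplp followed by a number, with the kinases of the Rps6k family left out and Rpsa added. They number 86 of the 55487 genes in the count tables, 52 of them named for the large and 34 for the small subunit. Rps19bp1 has such a symbol but encodes no ribosomal protein, and was kept because the rule takes it.

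Both lines descend from one founder population, FL1 by long selection for litter size and litter weight and ctrl without selection. No transgene or targeted allele is given for either line, and all mice were young adult females. GCs came from the largest follicles, whose oocyte and surrounding cumulus cells were left out, and each sample came from 1 mouse staged by vaginal smear. The 4 groups were ctrl in estrus, FL1 in estrus, ctrl in diestrus and FL1 in diestrus, with 5 mice in each. Each line is 1 breeding population, so that a difference between lines holds everything in which they differ.

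The cytosolic ribosome is built from ribosomal RNA and one copy of most ribosomal proteins, in a small subunit that reads the messenger RNA and a large subunit that joins the amino acids. The genes of its proteins are used in all cells, and their messenger RNAs start with a run of pyrimidines, the 5' terminal oligopyrimidine (TOP) motif, through which mTOR and the RNA-binding protein Larp1 control translation. In growing follicles, GCs divide and make much protein and steroid hormone. Mammalian genomes hold many processed pseudogenes of these genes, which are copies of the spliced messenger RNA set back into the genome, and a read that matches gene and copy alike cannot be placed.

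Near-identical copies of the members were therefore sought first, in a stretch around the stop codon. For each member this stretch was up to 400 nt of coding sequence before the stop codon and 100 nt after it. A copy had to match at 90% identity over 100 nt. Where the 3' tags fall was not examined. The choice planned at first was the last 500 nt of the transcript, and some pooled results below differ between these choices. Of the 86 members, 82 had a copy, and 1106 of the 1162 different copies were annotated as processed pseudogenes. The median was 9 copies per member, and Rpl7a had the most. Among those with none were Rpl39l, Rpl3l and Rps19bp1.

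The next sequences show how few bases tell a member from a copy. Each is a coding stretch of 60 nt at the end of the coding sequence, 5' to 3', on GRCm38 and from the GENCODE M21 transcripts. Capitals mark the bases at which member and copy differ, for the member at any copy shown with it, and positions are counted from 1 at the first base printed. Rpl32 is set beside 3 processed pseudogenes, Gm4987, Rpl32l and AC169506.2.
Rpl32: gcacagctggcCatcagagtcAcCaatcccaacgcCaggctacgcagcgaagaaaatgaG
Gm4987: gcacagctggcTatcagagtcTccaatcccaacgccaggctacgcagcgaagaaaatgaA
Rpl32l: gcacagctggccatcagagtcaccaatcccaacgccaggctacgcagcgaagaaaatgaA
AC169506.2: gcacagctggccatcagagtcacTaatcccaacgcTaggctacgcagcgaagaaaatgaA
The Rpl32 stretch lies in a coding exon at chr6:115805562-115805621 on the minus strand. Gm4987 (chrX:46455890-46455949, minus strand) differed from it by C12T, A22T and G60A. Rpl32l (chr10:20208829-20208888, plus strand) differed by G60A alone, and AC169506.2 (chr17:74332011-74332070, minus strand) by C24T, C36T and G60A. The last base before the stop codon was thus changed in each of the 3 copies.

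For Rpsa, the laminin receptor that is also a protein of the small subunit, Rpl34, a protein of the large subunit, and Rps2, a protein of the small subunit, 1 copy each is shown.
Rpsa: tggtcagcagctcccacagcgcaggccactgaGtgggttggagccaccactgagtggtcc
Rpsa-ps10: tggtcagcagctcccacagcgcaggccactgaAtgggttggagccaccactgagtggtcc
Rpl34: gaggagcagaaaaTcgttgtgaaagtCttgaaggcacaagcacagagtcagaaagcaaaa
Gm46578: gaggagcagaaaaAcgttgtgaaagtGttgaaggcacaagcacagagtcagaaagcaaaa
Rps2: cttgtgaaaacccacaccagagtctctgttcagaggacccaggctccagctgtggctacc
Gm7638: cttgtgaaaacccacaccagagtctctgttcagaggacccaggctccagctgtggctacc
Rpsa (chr9:120131432-120131491, plus strand) and Rpsa-ps10 (chr3:150072658-150072717, minus strand) differed by G33A. Rpl34 (chr3:130726878-130726937, minus strand) and Gm46578 (chr17:3130158-3130217, minus strand) differed by T14A and C27G. Rps2 (chr17:24721818-24721877, plus strand) and Gm7638 (chr16:11185135-11185194, minus strand) were the same in all 60 bases, so that no read within this stretch could be given to either. Gm7638 itself was not called between the lines, at 1.00 ± 0.71 (SE) in estrus and 1.95 ± 1.15 in diestrus on the log2 scale.

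Members with fewer unique windows had fewer assigned reads. Over windows of 50 nt in the same stretch, the median member had 27.8% of its windows in no other annotated transcript. The 39 members with under 25% unique windows had a median of 122.6 reads per library, and the 11 members with 75% or more had a median of 2794. Across the 86 members, which share libraries and depth, Spearman's rho between the share of unique windows and the mean reads was 0.592. The counts of the members are thus counts of uniquely placed reads, so that a low count of a member need not be a low level, and an order of counts is no order of levels.

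**Figure D1:**
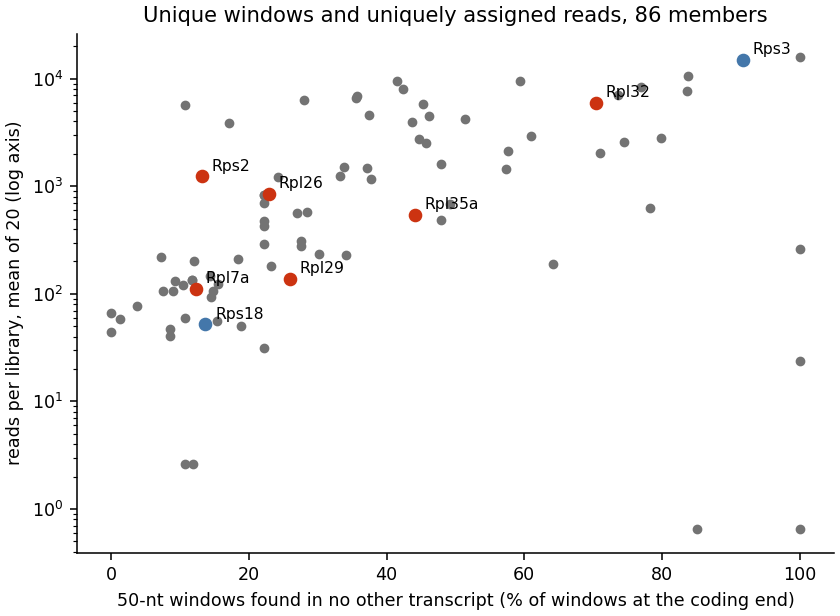
Share of 50-nt windows at the coding end found in no other transcript (x axis, percent) against the mean number of reads per library over 20 libraries (y axis, log scale) for the 86 members. Red points are the 6 members called between the lines, and blue points are Rps18 and Rps3. Rps18, a reference gene of the study's qPCR, sits low at 13.7% unique windows, and Rps3 high at 91.8%.

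The libraries held between 5446576 and 8257041 reads on genes, 48.9 to 58.4% of all their reads. Of all reads, 23.2 to 32.8% matched several places and were left uncounted, and 7.50 to 19.4% fell in no gene. Of 10 GC markers the highest were Inha, at a mean of 4753, and Gja1, at 5277 CPM, the reads on a gene scaled to a common library size. Fshr and Cyp19a1 had means of 88.7 and 83.3 CPM. The median log2 fold change of FL1 over ctrl was -0.13 over the 10 GC markers tested in estrus, with 6 below 0. In diestrus it was -0.18 over 9 tested, with 5 below 0, and no GC marker was called between the lines. Amh, a marker of smaller follicles, had a mean of 3.97 CPM. The summed level of 4 luteal markers (Akr1c18, Ptgfr, Lhcgr, Star) was 144 to 553 CPM in ctrl and 1587 to 4832 CPM in FL1 in estrus, and 201 to 462 against 434 to 1841 CPM in diestrus. In estrus 3 of the 4 were called higher in FL1, and in diestrus 1 of 4. The median log2 fold changes of the 5 endothelial markers were 0.67 in estrus and 1.46 in diestrus, and those of the macrophage and leukocyte markers tested 0.81 and 2.20. For the 6 oocyte markers they were 0.63 and 0.79, with summed levels of 46.4 to 472 CPM in ctrl and 167 to 467 CPM in FL1 in estrus and 42.3 to 365 against 57.5 to 544 CPM in diestrus, although the oocytes had been left out. For the 4 erythroid markers tested they were 0.62 and 1.61, and for the 6 theca and stroma markers tested 0.07 and 0.52. No gene of the endothelial, macrophage and leukocyte, oocyte, erythroid, or theca and stroma lists was called between the lines. The part of other cells in the results below was not tested, and in such bulk samples fewer cells of a type and less RNA per cell cannot be told apart.

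The members' reads made up a small share of each library, and the groups overlapped in this share. The share of gene reads on members was 3.14% ± 0.672 (SD, n = 5) in ctrl and 2.62% ± 0.234 (SD, n = 5) in FL1 in estrus. In diestrus it was 3.02% ± 0.568 (SD, n = 5) in ctrl and 2.67% ± 0.814 (SD, n = 5) in FL1. The 5 ctrl mice in estrus had 2.93, 2.96, 2.91, 2.596 and 4.32%, and the 5 FL1 mice 2.99, 2.38, 2.62, 2.64 and 2.46%. The 5 ctrl mice in diestrus had 2.64, 2.77, 3.27, 3.90 and 2.52%, and the 5 FL1 mice 4.01, 2.58, 1.94, 2.11 and 2.701%. No test was run on the share. The 2 highest shares, in ctrl in estrus replicate 5 and FL1 in diestrus replicate 1, came with the 2 highest shares of reads that matched several places (32.8 and 32.5%). The lowest share of members, in FL1 in diestrus replicate 3, came with the lowest such share (23.2%) and with 19.3% of reads outside genes. The part of these library properties was not tested.

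**Figure D2:**
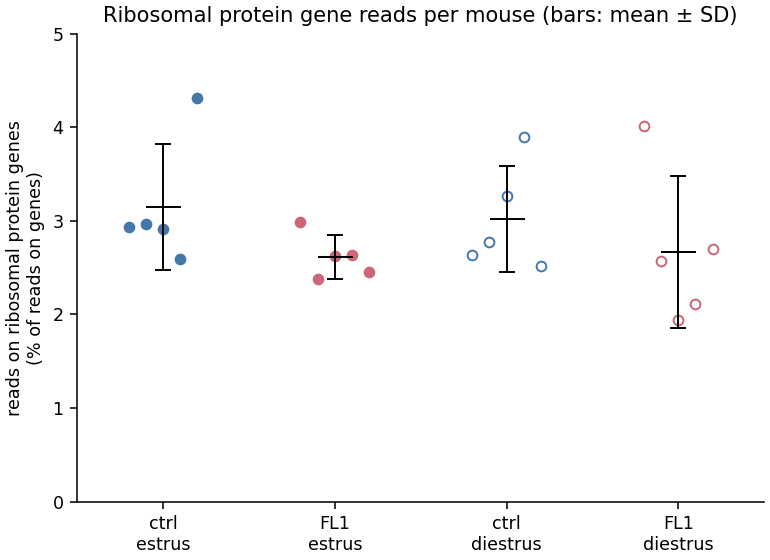
Reads on the 86 ribosomal protein genes as percent of all reads on genes (y axis), 1 point per mouse, for the 4 groups (x axis). Blue is ctrl and red FL1, filled points are estrus and open points diestrus, and bars give the mean and SD of 5 mice. The groups overlap, with means of 3.14 and 2.62% in estrus and 3.02 and 2.67% in diestrus.

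The first comparison asked how GCs of FL1 mice differ from those of ctrl mice in estrus. Most members had a log2 fold change slightly below 0, and 4 were called far lower in FL1. Of the 82 members that passed the filter on low counts, 61 had a log2 fold change below 0, or 74.4%, against 49.5% of the 13007 genes tested. Their median log2 fold change was -0.25, beside 0.01 for all genes tested, with the lower and upper quartile at -0.52 and 0.00. Without ctrl replicate 5, the mouse with the highest share of member reads, the median was -0.13 and 50 of 82 members were below 0, or 61.0%. The median was -0.23 over 49 members of the large subunit and -0.29 over 33 of the small subunit. It was -0.26 over the 19 members with at least 50% unique windows. Over the 35 members with 1000 or more reads per library it was -0.25, while the 1113 other genes of that depth had a median of -0.03. No test was run on these medians. The shift is one of the members relative to other genes. With size factors taken from the members themselves the median of all genes moved to 0.28, which that scaling fixes in advance.

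Single members passed the test in estrus. In edgeR's quasi-likelihood test with Benjamini-Hochberg adjustment over all genes, 4 of the 82 members were called at an adjusted p of 0.05 or less, and all 4 were lower in FL1. Of all genes tested, 0.769% were called, and 0.354% were called lower. The values of 8 members, all lower in FL1, did not overlap between the lines, which held for 3.55% of all genes and in that direction for 1.71%. They included the 4 called members and also Rpl35a, Rps26 and Rpl13. At an unadjusted p under 0.05, 20 members passed, or 24.4%, against 10.7% of all genes, and 19 of the 20 were lower in FL1.

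In diestrus the same comparison gave a similar picture in 10 other mice. Of the 82 members tested, 64 were below 0, or 78.0%, against 48.7% of 12886 genes. Their median log2 fold change was -0.23, beside 0.01 for all genes. This median was -0.13 without ctrl replicate 4 and -0.15 without FL1 replicate 3, with 56 members below 0 in either case, and -0.42 without FL1 replicate 1. Over all mice it was -0.23 over the large and -0.18 over the small subunit, and -0.08 over the 19 members with at least 50% unique windows. Over the 35 members with 1000 or more reads the median was -0.18, with 0.02 for the other genes of that depth. The values of 6 members did not overlap between the lines, 5 lower and 1 higher in FL1, which held for 1.59% of all genes, and in the lower direction for 0.768%. At an unadjusted p under 0.05, 14 members passed, or 17.1%, against 5.56% of all genes. By the same test 5 members were called, all lower in FL1, where 0.248% of all genes were called and 0.155% were called lower. With robust estimation of the spread, or with any 1 of 5 libraries left out (ctrl replicate 4 or FL1 replicates 2, 3, 4 and 5), the count of called members fell to 3.

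**Figure D3:**
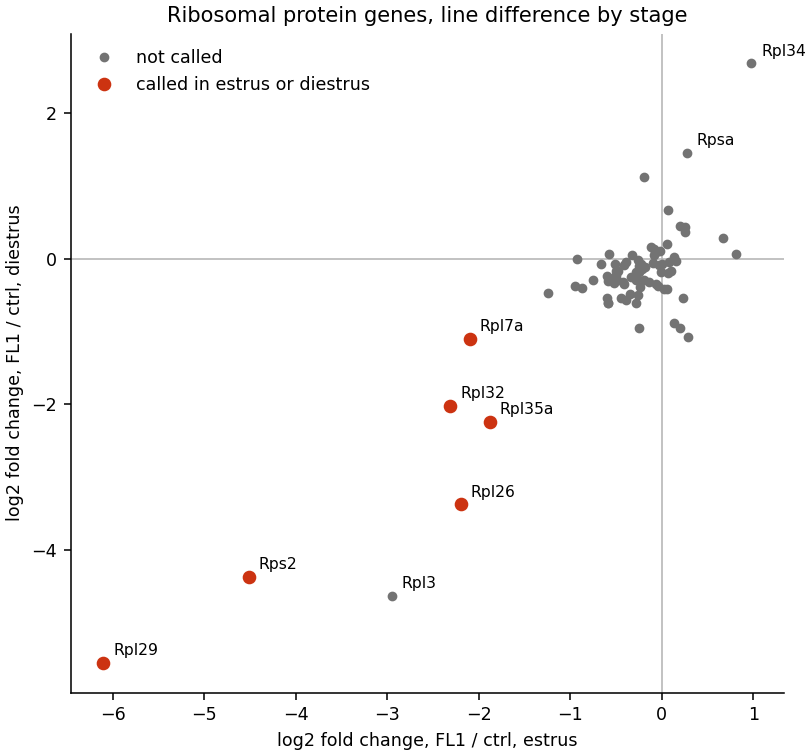
Log2 fold change of FL1 over ctrl in estrus (x axis) and in diestrus (y axis) for the 82 members tested in both, 1 point per gene, where each axis rests on 10 different mice. Red points passed the test in at least 1 stage. Most points lie a little below and left of 0, and Rps2, Rpl29, Rpl32, Rpl35a, Rpl7a and Rpl26 lie far down and left, as does Rpl3, which did not pass.

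Rps2 (chr17:24718116-24721929), which encodes a protein near the messenger RNA entry of the small subunit, was lower in FL1 in both stages. In estrus the 5 ctrl mice had 307, 252, 432, 306 and 358 CPM and the 5 FL1 mice 17.6, 12.4, 18.9, 3.79 and 20.3 CPM. In diestrus the 5 ctrl mice had 40.9, 445, 544, 524 and 199 CPM and the 5 FL1 mice 23.9, 9.04, 16.5, 17.2 and 17.4 CPM. The lines did not overlap in either stage, and ctrl in diestrus replicate 1 stood closest to FL1. This was a log2 fold change of -4.51 ± 0.35 (SE) in estrus (edgeR adjusted p = 1.15e-06) and -4.37 ± 0.53 in diestrus (edgeR adjusted p = 6.37e-04). Rps2 had 65 copies, and 13.2% of its windows were unique. With the reads of its copies added, the levels were 392 ± 60.4 (SD, n = 5) CPM in ctrl and 95.3 ± 19.03 (SD, n = 5) CPM in FL1 in estrus, and the log2 fold change was -2.04 ± 0.20 (SE; edgeR adjusted p = 1.64e-05). In diestrus this value was -2.01 ± 0.39 (SE; edgeR adjusted p = 0.0461). The difference of Rps2 was thus smaller, but called, in both stages when the copies were counted with it.

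Rpl29 (chr9:106429454-106431568), a small basic protein of the large subunit that is not needed for viability in mice, was near 0 in FL1. In estrus the ctrl mice had 20.1, 34.6, 34.5, 37.7 and 33.7 CPM and the FL1 mice 0.157, 0.624, 0, 0 and 1.53 CPM. In diestrus the ctrl mice had 0, 66.0, 67.7, 57.6 and 40.0 CPM and the FL1 mice 2.65, 0.137, 0.162, 0 and 1.88 CPM. In ctrl in diestrus replicate 1, the mouse that was also lowest for Rps2, Rpl29 had no read, so that the lines overlapped in diestrus. FL1 differed from ctrl by a log2 fold change of -6.10 ± 0.75 (SE) in estrus (edgeR adjusted p = 2.77e-04) and -5.55 ± 1.09 in diestrus (edgeR adjusted p = 0.0439). Rpl29 had 61 copies, which held 57.6% of the reads of gene and copies together. Pooled with them, it was -1.60 ± 0.31 in estrus (edgeR adjusted p = 0.0141) and -1.32 ± 0.43 in diestrus, where it was no longer called (edgeR adjusted p = 0.517). The diestrus call was also lost when any of 8 of the 10 libraries was left out, ctrl replicate 1 and FL1 replicate 1 excepted. Without ctrl replicate 1 the value was -5.89 (edgeR adjusted p = 7.28e-04).

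Rpl32 (chr6:115805505-115808747), a protein of the large subunit, had many more reads. In estrus the ctrl mice had 1402, 879, 1463, 934 and 2074 CPM and the FL1 mice 357, 249, 254, 206 and 297 CPM. In diestrus the ctrl mice had 1281, 1559, 1694, 1982 and 1212 CPM and the FL1 mice 648, 377, 240, 222 and 399 CPM. Both lines were well apart in each stage, with a log2 fold change of -2.31 ± 0.24 (SE) in estrus (edgeR adjusted p = 4.37e-05) and -2.03 ± 0.28 in diestrus (edgeR adjusted p = 0.00191). This member had 70.4% unique windows.

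The 3 copies of Rpl32 shown above were higher in FL1 in diestrus, as counts of reads placed on GRCm38. The part of sequence variants between the lines in where reads were placed was not tested, for these or any other genes and copies. Gm4987 had 0.291, 91.3, 1.37, 109.3 and 2.77 CPM in ctrl and 186, 220, 153, 386 and 212 CPM in FL1 in estrus. In diestrus it had 0.714, 3.35, 1.87, 1.27 and 2.54 CPM in ctrl and 355, 219, 172, 195 and 240 CPM in FL1. It was high in all 10 FL1 mice and in ctrl in estrus replicates 2 and 4, the 2 mice with the lowest Rpl32 of their group, and low in the other ctrl mice. The log2 fold change of Gm4987 was 2.49 ± 0.91 (SE) in estrus (edgeR adjusted p = 0.274) and 6.88 ± 0.37 in diestrus (edgeR adjusted p = 2.34e-08). Rpl32l and AC169506.2 were also called higher in FL1 in diestrus, at 5.69 ± 0.89 and 6.50 ± 1.05, and AC169506.2 was at least 27.7-fold higher there, taking 3 reads per library as the floor in ctrl.

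Pooled with its copies, Rpl32 was again lower in FL1. In this fit the log2 fold change was -1.40 ± 0.21 (SE) in estrus (edgeR adjusted p = 0.00248) and -1.25 ± 0.25 in diestrus (edgeR adjusted p = 0.0573). When copies were sought in the last 500 nt of the transcript instead, the pooled value in diestrus was again -1.25 and just passed (edgeR adjusted p = 0.048). The pooled levels were 1399 ± 436 (SD, n = 5) CPM in ctrl and 533 ± 67.4 (SD, n = 5) CPM in FL1 in estrus.

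Rpl35a (chr16:33056453-33060189), a large-subunit protein known from its mutation in Diamond-Blackfan anemia, was called in diestrus. In estrus the ctrl mice had 166, 97.2, 64.3, 80.4 and 215 CPM and the FL1 mice 54.9, 31.1, 53.5, 3.79 and 25.9 CPM. In diestrus the ctrl mice had 194, 139, 60.7, 184 and 141 CPM and the FL1 mice 43.8, 21.4, 30.9, 11.8 and 43.3 CPM. Again the lines did not overlap in either stage. Rpl35a had a log2 fold change of -2.24 ± 0.36 (SE) in diestrus (edgeR adjusted p = 0.00899) and -1.88 ± 0.48 in estrus (edgeR adjusted p = 0.0814). In estrus it passed without FL1 replicate 4 (edgeR adjusted p = 0.0367), the library with 3.79 CPM. Pooled with its copies it passed in both stages, at -1.55 ± 0.31 (edgeR adjusted p = 0.0172) and -1.68 ± 0.32 (edgeR adjusted p = 0.0461).

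Rpl7a (chr2:26910764-26913318), a large-subunit protein, was called in estrus. There the ctrl mice had 35.3, 35.0, 21.2, 17.2 and 28.9 CPM and the FL1 mice 5.65, 6.24, 6.08, 2.53 and 11.7 CPM. In diestrus the ctrl mice had 25.5, 20.5, 15.6, 27.1 and 24.7 CPM and the FL1 mice 9.20, 9.86, 9.88, 13.0 and 10.6 CPM. No FL1 mouse reached a ctrl mouse of its stage. For Rpl7a the log2 fold change was -2.10 ± 0.44 (SE) in estrus (edgeR adjusted p = 0.0291) and -1.10 ± 0.34 in diestrus (edgeR adjusted p = 0.458). In DESeq2 it also passed in diestrus, at -1.10 (adjusted p = 0.0371). The study, which used DESeq2, lists Rpl7a among the genes weaker in FL1 in diestrus. Its copies held 78.7% of the reads of gene and copies together, and with them pooled the value was -0.61 ± 0.23 in estrus (edgeR adjusted p = 0.271) and -0.15 ± 0.20 in diestrus (edgeR adjusted p = 1.00). The estrus call was also lost when 1 of ctrl replicates 1 and 2 or FL1 replicates 1, 2 and 3 was left out (highest edgeR adjusted p = 0.0945).

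Rpl26 (chr11:68901583-68906989), a large-subunit protein at the exit of the peptide tunnel, was called in diestrus with a wide spread in ctrl. In diestrus the ctrl mice had 59.0, 34.0, 597, 637 and 382 CPM and the FL1 mice 55.5, 39.3, 15.6, 14.995 and 38.0 CPM. In estrus the ctrl mice had 40.5, 53.9, 30.6, 380 and 56.4 CPM and the FL1 mice 34.1, 23.5, 28.2, 5.05 and 31.9 CPM. High values were seen in 3 ctrl mice in diestrus and in 1 in estrus. The other ctrl mice spanned 30.6 to 56.4 CPM in estrus and 34.0 to 59.0 CPM in diestrus, where FL1 mice had at most 34.1 and 55.5 CPM. The log2 fold change was -3.38 ± 0.67 (SE) in diestrus (edgeR adjusted p = 0.0463) and -2.20 ± 0.62 in estrus (edgeR adjusted p = 0.117). Without ctrl in estrus replicate 4 the estrus value was -0.88. In diestrus the call was lost when any of 8 of the 10 libraries was left out, ctrl replicates 1 and 2 excepted, and when the copies were pooled (-2.89 ± 0.60, edgeR adjusted p = 0.0744).

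**Figure D4:**
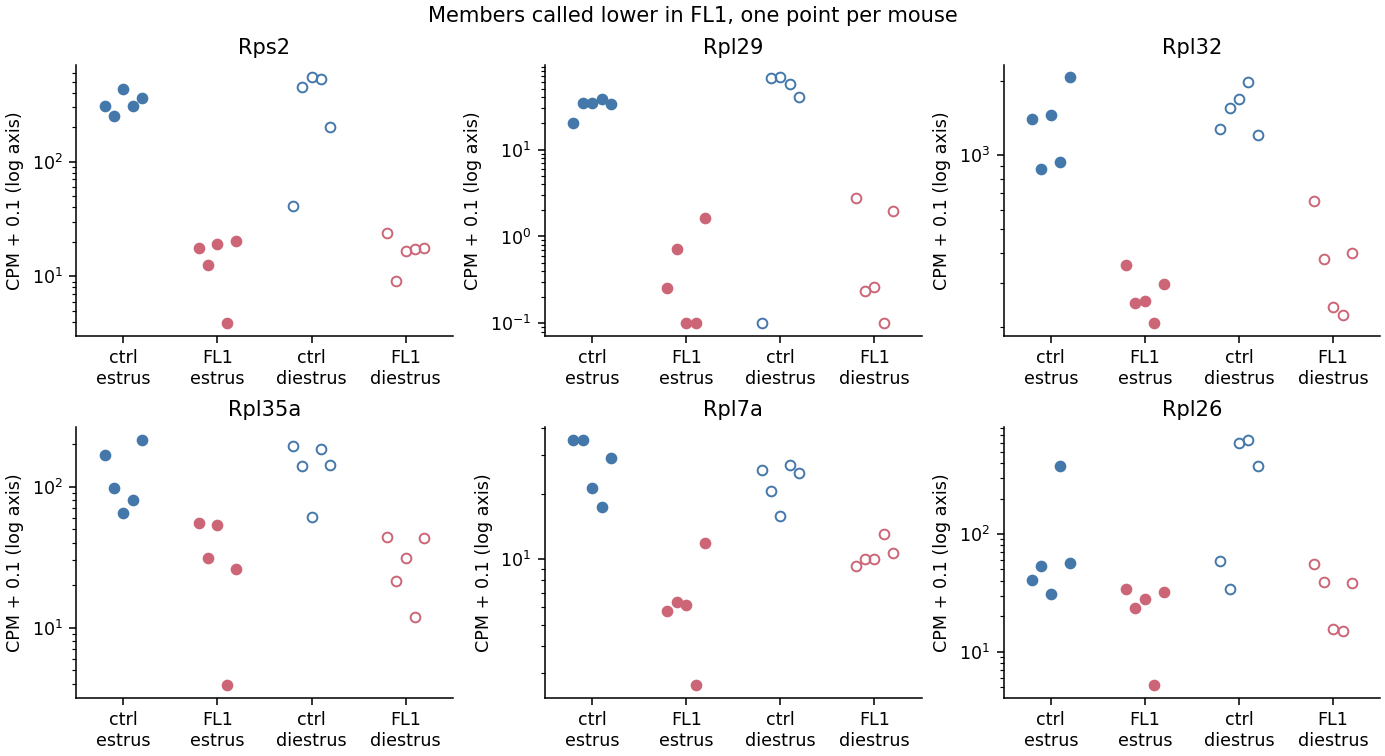
CPM plus 0.1 on a log axis (y axis) for the 6 members called in a line comparison, 1 point per mouse, in the 4 groups (x axis). Blue is ctrl and red FL1, filled points are estrus and open points diestrus. For Rps2, Rpl32, Rpl35a and Rpl7a no FL1 mouse reaches the lowest ctrl mouse of its stage, while Rpl29 has 1 ctrl mouse at 0 in diestrus and Rpl26 is high in 4 ctrl mice only.

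Rpl3, Rpl34 and Rpsa had large line differences that did not pass the main edgeR test. Rpl3 (chr15:80077791-80091868), which lies at the peptidyl transferase centre, had 75.05, 3.57, 1.14, 0.295 and 61.4 CPM in ctrl and 6.91, 3.49, 7.01, 0.140 and 0.678 CPM in FL1 in estrus. In diestrus it had 77.6, 66.0, 4.003, 155 and 3.21 CPM in ctrl and 0.936, 2.74, 0.162, 2.73 and 5.63 CPM in FL1. It was high in 5 ctrl mice and under 8 CPM in the other 15 mice. The log2 fold change was -2.95 ± 1.12 (SE) in estrus (edgeR adjusted p = 0.297) and -4.63 ± 0.96 in diestrus (edgeR adjusted p = 0.0619). In diestrus Rpl3 passed without ctrl replicate 3 or 5 (edgeR adjusted p = 0.0260 and 0.0187), but with no other mouse left out. It also passed there in DESeq2 (adjusted p = 0.00549), but not in limma-voom.

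Rpl34 (chr3:130726831-130730398) was the member with the largest positive line difference in both stages. It had 65.7, 629, 58.0, 51.5 and 1483 CPM in ctrl and 1075, 697, 806, 1133 and 800 CPM in FL1 in estrus. In diestrus it had 491, 57.8, 59.7, 74.7 and 45.2 CPM in ctrl and 1694, 820, 615, 675 and 904 CPM in FL1. All FL1 mice and 3 ctrl mice were high, and 7 ctrl mice lay under 75 CPM. The log2 fold change was 0.98 ± 0.69 (SE) in estrus (edgeR adjusted p = 0.690) and 2.69 ± 0.59 in diestrus (edgeR adjusted p = 0.0950). Without ctrl in diestrus replicate 1, the diestrus value was 3.99 and passed (edgeR adjusted p = 1.32e-05). Rpl34 also passed in diestrus in DESeq2 (adjusted p = 0.0342) and in both stages in limma-voom (adjusted p = 0.0327 in estrus and 4.2e-05 in diestrus). With RLE size factors in edgeR it passed in neither stage.

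Its copy Gm46578 had 17.0, 5.43, 6.07, 12.2 and 0.173 CPM in ctrl in estrus and no read in any of the 5 FL1 mice. In diestrus it had 7.85, 10.8, 18.9, 46.7 and 14.97 CPM in ctrl and at most 0.324 CPM in FL1, where it was at least 41.6-fold lower (edgeR adjusted p = 6.39e-04). Of the ctrl mice in estrus, the one with the highest Rpl34 had the lowest Gm46578. Pooled with its copies, Rpl34 differed by 0.91 ± 0.59 in estrus and 2.34 ± 0.47 in diestrus (edgeR adjusted p = 0.0677).

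For Rpsa (chr9:120127689-120132369) a copy was called lower in FL1 in diestrus, and gene and copies together lay close in both lines. In diestrus the ctrl mice had 5.53, 59.96, 10.9, 19.99 and 38.4 CPM and the FL1 mice 88.3, 85.8, 54.1, 59.5 and 81.2 CPM. Rpsa-ps10, 99.5% identical to it over 397 nt, had 26.4, 29.7, 70.6, 63.6 and 13.6 CPM in these ctrl mice and at most 0.682 CPM in these FL1 mice. The copy was called lower, at -6.66 ± 0.61 (SE; edgeR adjusted p = 2.94e-05), and Rpsa differed by 1.46 ± 0.46 (SE; edgeR adjusted p = 0.478). Pooled with all its copies, Rpsa had 81.5 ± 28.3 (SD, n = 5) CPM in ctrl and 82.1 ± 17.8 (SD, n = 5) CPM in FL1, a log2 fold change of 0.02 ± 0.26. When copies were sought in the last 500 nt of the transcript instead, the pooled value was 1.46 ± 0.46. In estrus Rpsa had 79.6, 122, 44.5, 95.3 and 71.0 CPM in ctrl and 120, 88.4, 96.3, 100.4 and 94.96 CPM in FL1, and the pooled log2 fold change was -0.11 ± 0.21.

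**Figure D5:**
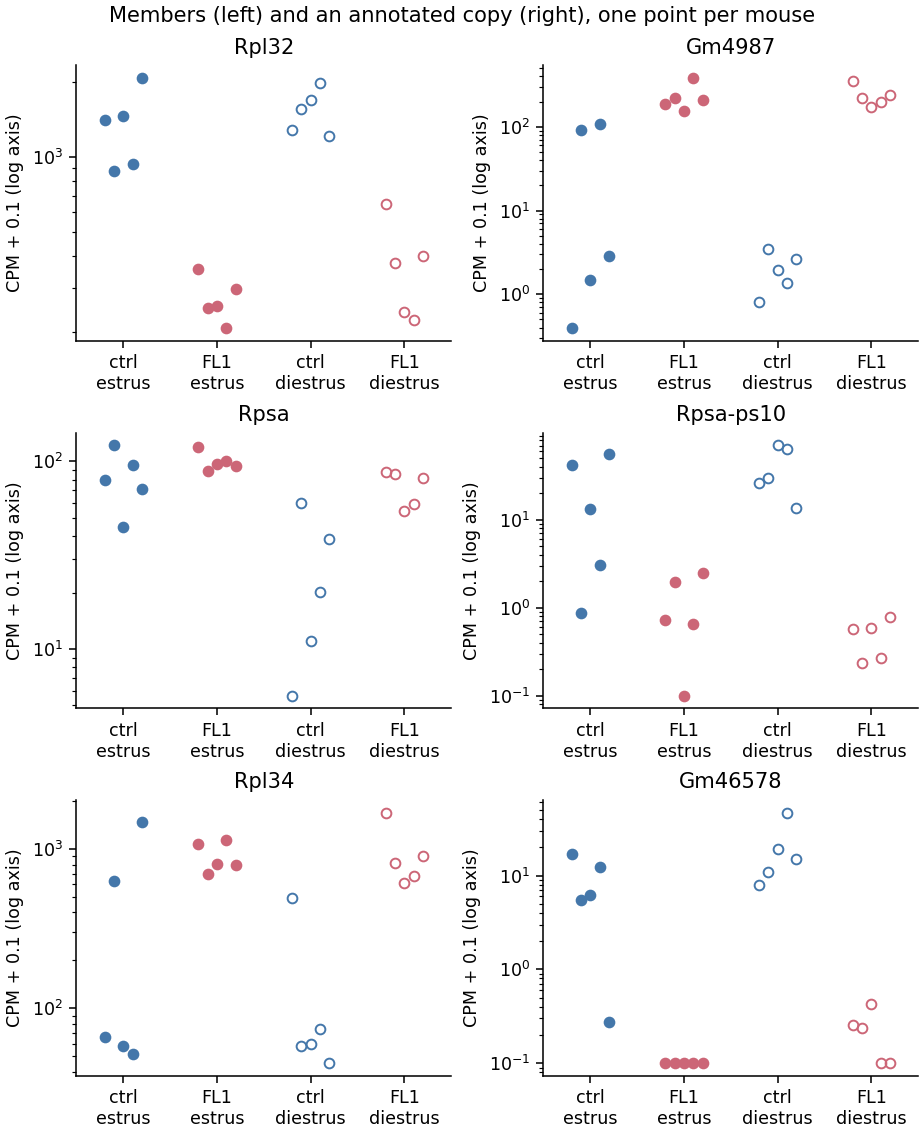
CPM plus 0.1 on a log axis (y axis) for Rpl32, Rpsa and Rpl34 (left) and for a copy of each, Gm4987, Rpsa-ps10 and Gm46578 (right), 1 point per mouse in the 4 groups (x axis). Blue is ctrl and red FL1, filled points are estrus and open points diestrus. Gm4987 is high in the 10 FL1 mice and in 2 ctrl mice, while Rpsa-ps10 and Gm46578 are low in all FL1 mice and higher in most ctrl mice.

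Copies of 2 members that were not called, Rps3 and Rplp1, were also called in estrus. Gm14513, a copy of Rps3, had 84.4, 24.2, 47.9, 80.3 and 62.5 CPM in ctrl and at most 0.702 CPM in FL1 in estrus (log2 fold change -7.46 ± 0.56, edgeR adjusted p = 1.15e-06). Rps3, a small-subunit protein with 91.8% unique windows, had 2018 ± 813 (SD, n = 5) CPM in ctrl and 2400 ± 260 (SD, n = 5) CPM in FL1 in estrus. The 2 ctrl mice with the highest Gm14513 in estrus had the lowest Rps3 of their group, 1194 and 1132 CPM. Gm11942, a copy of the stalk protein gene Rplp1, had 1161 and 1124 CPM in 2 ctrl mice in estrus, 770 and 935 CPM in 2 ctrl mice in diestrus, and at most 13.3 CPM in the other 16 mice. Rplp1 had 550, 548, 553 and 521 CPM in these 4 ctrl mice and 718 to 1510.1 CPM in the other 6 ctrl mice, while the FL1 mice, all with low Gm11942, spanned 492 to 1499.8 CPM. In all, 2 of 196 copies tested were called in estrus, or 1.02% beside 0.769% of all genes, which is near that background. In diestrus 6 of 194 were called, or 3.09% beside 0.248% of all genes, 3 of them higher and 3 lower in FL1.

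With each member pooled with its copies, most members again lay below 0. In estrus 72 of 84 members tested had a pooled log2 fold change below 0, or 85.7%, with a median of -0.27 beside 0.01 for all genes. In diestrus 67 of 84 were below 0, or 79.8%, with a median of -0.21. Called were Rps2, Rpl29, Rpl32 and Rpl35a in estrus, and Rps2 and Rpl35a in diestrus. The share of reads on members and copies together was 3.41% in ctrl and 2.82% in FL1 in estrus, and 3.27 and 2.88% in diestrus, with overlapping mice.

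The stalk proteins and Rps18, which with Rplp0 served among the reference genes of the study's qPCR, did not pass in any comparison. Rplp0, the stalk base known as 36B4, had 695 ± 139 (SD, n = 5) CPM in ctrl and 668 ± 203 (SD, n = 5) CPM in FL1 in estrus, and 633 ± 121 against 670 ± 223 (SD, n = 5) CPM in diestrus. Its log2 fold change was -0.06 ± 0.21 (SE) in estrus and 0.09 ± 0.23 in diestrus, and its sign turned in estrus with size factors from the members and when 1 of 4 libraries was left out. Rplp1 and Rplp2 differed by 0.16 ± 0.27 and -0.01 ± 0.22 in estrus and by -0.03 ± 0.34 and -0.18 ± 0.22 in diestrus. Rps18, a small-subunit protein, had only 7.40 ± 3.87 (SD, n = 5) CPM in ctrl and 6.26 ± 4.21 (SD, n = 5) CPM in FL1 in estrus. Of the reads on Rps18 and its copies together, 90.9% fell on the copies.

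Rps3 and Rpl4 were among the members of highest count, with means of 2247 and 1584 CPM. Rpl4, which lines the peptide tunnel, had 1721 ± 104.3 (SD, n = 5) against 1472 ± 105.6 (SD, n = 5) CPM in estrus. Rpl39l, Rpl28 and Rps27a were the 3 members tested with the lowest counts, with means of 3.63, 4.63 and 6.03 CPM. Rpl3l, Rpl10l, Rpl24 and Rps6 did not pass the filter in any comparison. Rps6, the substrate of the S6 kinases, and Rpl24 had no unique read in most mice, and of both the true level cannot be read from these counts.

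The remaining extremes of the line comparisons did not pass the test. In estrus Rpl5 and Rps7 followed Rpl34 at 0.81 ± 0.38 and 0.67 ± 0.64, and pooled with its copies Rps7 was at -0.10 ± 0.33. In diestrus Rpl39l followed Rpsa and Rpl34 with 1.13 ± 1.22.

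Paralogs that replace or accompany a standard member were not called in any comparison. Rpl22l1, the paralog of Rpl22, had 278 ± 55.2 (SD, n = 5) CPM in ctrl and 263 ± 22.2 (SD, n = 5) CPM in FL1 in estrus, and 184 ± 43.3 and 189 ± 59.5 (SD, n = 5) CPM in diestrus. Rps27l, a paralog of Rps27 known as a p53 target, had between 358 and 412 CPM on average in the 4 groups. Rpl7l1 and Rpl36al had means of 94.4 and 73.4 CPM over the 20 mice, and Rps27rt 15.9 CPM. Rps19bp1, which encodes no ribosomal protein and is not one of these paralogs, had 39.5 CPM. The paralogs of muscle and testis, Rpl3l and Rpl10l, had at most 8 reads in any library.

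The stage comparisons asked how GCs differ between diestrus and estrus in each line. No member was called in either line by edgeR, where 1.36% of all genes were called in ctrl and 0.221% in FL1. At an unadjusted p under 0.05, 4 of 82 members in ctrl and 4 of 81 in FL1 passed, against 11.8 and 9.48% of all genes. DESeq2 called 1 member in ctrl (Rpsa) and 0 in FL1. The median log2 fold change of the members was 0.00 in ctrl and 0.05 in FL1, beside 0.00 and 0.01 for all genes. The FL1 median changed sign in limma-voom with quality weights, at -0.12, and without FL1 in diestrus replicate 1, at -0.13 with 56 of 81 members below 0.

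Rpsa was the member closest to a stage call in ctrl. It was 82.5 ± 28.8 (SD, n = 5) CPM in estrus and 27.0 ± 22.3 (SD, n = 5) CPM in diestrus, a log2 fold change of -1.62 ± 0.48 (SE; edgeR adjusted p = 0.126), and passed in DESeq2 (adjusted p = 0.0350) and without ctrl in diestrus replicate 2 (edgeR adjusted p = 0.0271). Pooled with its copies it was -0.55. The other largest differences in ctrl were -1.65 ± 0.88 for Rpl34 and -1.35 ± 1.31 for Rpl39l, and 1.59 ± 0.76 for Rpl26, 1.11 ± 1.09 for Rpl3 and 0.93 ± 0.40 for Rpl21. In FL1 they were -0.98 ± 0.75 for Rpl36, -0.84 ± 0.59 for Rps12 and -0.68 ± 0.35 for Rpl5, and 0.92 ± 0.40 for Rpl12, 0.75 ± 0.73 for Rpl10 and 0.69 ± 0.54 for Rpl7a. Of the 81 members in FL1, 0 reached an absolute log2 fold change of 1, against 11.6% of all genes tested, and in ctrl 5 of 82 did, against 12.5%.

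The interaction of line and stage, the line difference in diestrus minus that in estrus, was tested over all 20 mice. No member was called, and 0% of the 14938 genes tested were called by edgeR. At an unadjusted p under 0.05, 2 of 82 members passed, Rpl21 (-1.37 ± 0.59) and Rpsa (1.17 ± 0.54), against 4.75% of all genes, and DESeq2 called 0 members. Rpl34 (1.71 ± 0.99), Rpl39l (1.30 ± 1.76), Rpl3 (-1.69 ± 1.51) and Rpl26 (-1.19 ± 0.95) had the other largest values. The interaction was 0.12 ± 0.61 for Rps2, 0.53 ± 1.28 for Rpl29, 0.27 ± 0.37 for Rpl32 and -0.37 ± 0.64 for Rpl35a, each less than its own SE.

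Genes that work with the ribosome were set beside its proteins. The 62 genes of ribosome biogenesis, such as the nucleolar proteins Ncl and Npm1, had 41 below 0 and a median of -0.17 in estrus and 43 below 0 and a median of -0.12 in diestrus, with none called. Of 20 translation factors and other TOP transcripts tested, 13 and 14 were below 0, with medians of -0.14 and -0.09 and none called. The elongation factor Eef1a1 differed by -0.46 ± 0.18 (SE) in estrus and -0.19 ± 0.24 in diestrus. Fau, which encodes a small-subunit protein made as a fusion with a ubiquitin-like protein, differed by -0.66 ± 0.40 in estrus and -0.58 ± 0.40 in diestrus. By contrast, 40 of 77 genes of mitochondrial ribosomal proteins were below 0 in estrus and 36 of 77 in diestrus, with medians of -0.01 and 0.01.

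Of the 13 regulators of mTOR signalling and TOP translation, none was called. Larp1 differed by -0.39 ± 0.29 (SE) in estrus and -0.63 ± 0.35 in diestrus, and Mtor by -0.04 ± 0.25 and 0.20 ± 0.21. Myc, a transcription factor of ribosome genes, was higher in FL1 in estrus without overlap at 1.59 ± 0.58, but did not pass (edgeR adjusted p = 0.271), and had -0.82 ± 0.63 in diestrus.

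Promoters from RefSeq on GRCm38.p6 were found for 66 of the 86 members. A C at the annotated start followed by at least 4 bases that are C or T, read on the gene's strand only, was found in 14 of them, or 21.2%, against 3.0% of all 27025 genes of the table. Within 10 bases of the start it was found in 60.6% of members and 34.4% of all genes. Of 69 genes of mitochondrial ribosomal proteins, 0.0% had it at the start and 44.9% within 10 bases of the start. For the 4 called members in the table, 30 bases around a listed start are shown, with such a run in capitals where there is one.
Rpl35a: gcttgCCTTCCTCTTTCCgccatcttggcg
Rpl7a: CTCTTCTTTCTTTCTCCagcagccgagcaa
Rps2: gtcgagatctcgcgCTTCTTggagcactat
Rpl26: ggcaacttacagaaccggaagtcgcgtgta
The window of Rpl35a is chr16:33056472-33056501 that of Rpl7a chr2:26910797-26910826, that of Rps2 chr17:24720053-24720082 and that of Rpl26 chr11:68901556-68901585, all on the plus strand. For Rpl35a this is 1 of 3 starts in the table, and the windows of the other starts held no run. The run spans the start in Rpl35a and in Rpl7a. In Rpl7a it reaches the first base of the window, 10 bases before the start, so that where it begins is not shown. In Rps2 the run began 4 bases after the listed start. That start lies inside the gene as annotated in GENCODE M21 (chr17:24718116-24721929), so this window does not show the annotated 5' end of Rps2. Rpl26 had no run in its window. Rpl32 and Rpl29 were not analysed here for this motif.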

How the data were processed

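GCs were profiled by 3' mRNA sequencing (QuantSeq), which yields about 1 tag per transcript near its 3' end. The authors aligned the reads with STAR to GRCm38 and deposited counts per gene. The values are whole-number read counts, not normalized, of reads with 1 match, and the strand setting is not given in the sources used here. The 20 libraries held 5446576 to 8257041 reads on genes, and replicates are separate mice.

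From these counts, edgeR 4.0.16 (R 4.3.3) was run with TMM scaling, filterByExpr (minimum count 10, total 15) and the quasi-likelihood F test, over all genes of the 2 groups compared, or of all 4 for the interaction. Genes were called at a Benjamini-Hochberg adjusted p of 0.05. SE is the log2 fold change divided by the root of F. CPM use 1 TMM scaling over 20 libraries. Copies were found by BLAST+ 2.17.0 in GENCODE M21 transcripts. The edgeR model was tried on simulated counts for the line comparison in estrus only, with the same spread for all genes.

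The members and lists were chosen with earlier results of these data known. Named are the called members, the 3 largest changes each way per comparison, the 3 highest and lowest members, Rps2, Rpl32, Rpl29, Rps18, Rplp0, the paralogs, and up to 3 copies of each. Rps4l is no member in M21. Other tests, scalings, filters, pooled copies, the replicate block and leaving out each mouse were tried. Some genes that the rule names are not reported here.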

Additional observations from a re-analysis of the deposited data

Results flagged for a closer look

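In each group of 5 mice, a highest or lowest value far from the other 4 was sought by Dixon's criterion. Of 88 groups examined 10 were picked out, where chance picks about 1 in 20 for normally distributed values. The CPM were not transformed and most genes were chosen as called or extreme, so that this rate need not hold here. Among members these were Rpl26 in ctrl in estrus replicate 4 (380 CPM, next 56.4), Rpl29 in ctrl in estrus replicate 1 (20.1 CPM, next 33.7), and Rpl34 in ctrl in diestrus replicate 1 (491.5 CPM, next 74.7) and in FL1 in diestrus replicate 1 (1694 CPM, next 904). Among copies they were AC169506.2 in ctrl in estrus replicate 2 (6.05 CPM), Gm14513 in FL1 in diestrus replicate 2 (3.01 CPM), Gm46578 in ctrl in diestrus replicate 4 (46.7 CPM), Gm4987 in FL1 in estrus replicate 4 (385.5 CPM) and Rpl32l in ctrl in diestrus replicate 2 (1.47 CPM). The share of gene reads on members was picked out in ctrl in estrus replicate 5 (4.32%, next 2.96%).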

How the results depend on the processing

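The 4 members called in estrus became 7 in DESeq2 and 8 without the filter, and 3 to 5 with 1 mouse left out. In diestrus, the 5 became 8 in DESeq2 and without the filter, 3 with robust estimation, size factors from the members or copies pooled over the last 500 nt, 2 with copies pooled over the coding end, and 3 to 6 with 1 mouse left out. The 0 of the ctrl stage comparison became 2 without the filter, 1 in DESeq2 and in a fit of all 20 samples, and 0 to 1 with 1 mouse left out. The 0 calls of the FL1 stage comparison and of the interaction stayed 0 under the alternatives run.

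Same-numbered mice did not deviate together (r of -0.116 to 0.117), so the numbers were not taken as pairs. With the replicate block the calls were 3 in estrus, 2 in diestrus (Rpl32 and Rpl34) and 1 in the ctrl stage comparison (Rpsa).

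The median in estrus was 0.040 with size factors from the members, which moved all genes by 0.28, and -0.35 to -0.13 with 1 mouse left out. In diestrus it was -0.42 to -0.13. Shares were 4.90, 4.36, 4.85 and 4.50% with copies from the last 500 nt added and 1.66, 1.43, 1.57 and 1.42% of all reads, for ctrl and FL1 in estrus and ctrl and FL1 in diestrus.

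Signs turned for Rplp0 in estrus (0.28 with size factors from the members, -0.23 to 0.066 with 1 mouse left out, above 0 in 4 of those fits) and in diestrus (-0.071 in limma-voom, -0.099 to 0.24 with 1 mouse left out, below 0 without FL1 replicate 1), and for Rps18 in estrus (-0.67 to 0.071 with 1 mouse left out, above 0 without ctrl replicate 2). They also turned for Rps7 in estrus (-0.16 and -0.10) and Rpl36 in the FL1 stage comparison (0.14 and 0.14) with copies pooled, and for Rpl39l in limma-voom (0.37 in the ctrl stage comparison, -0.94 in the interaction). The cause was not tested. Reads with several matches were not counted, which limits members with few unique windows.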
